A study of Homo sapiens with 8 samples.

Results

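The interferon-induced antiviral genes described here were the 10 genes IFIT1, IFIT2, IFIT3, IFIT5, OAS1, OAS2, OAS3, OASL, MX1 and MX2, listed by name out of 19970 protein-coding genes of RefSeq. No measured value enters that rule, but earlier results of these data were known when it was set. The data were lists of ChIP-seq peaks for the heterochromatin proteins HP1a (HP1α, CBX5) and HP1b (HP1β, CBX1) in MCF10A, a line of non-tumorigenic breast epithelial cells. Each of 4 groups had 2 libraries, 8 in all: HP1a was precipitated from untreated wild-type cells and from cells with knock-down of HP1B, and HP1b from untreated wild-type cells and from cells with knock-down of HP1A. No interferon treatment is named for any group. The labels do not say how the knock-down was made, whether a line was 1 clone or whether replicates were separate cultures, so the p-values measure only the spread between these libraries, which may be technical. Peak lists hold no expression values, so neither the knock-down nor the epithelial identity of the cells could be checked in them.

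Interferons bind receptors on the cell surface, and JAK kinases then pass the signal to transcription factors that enter the nucleus and bind interferon-stimulated response elements near antiviral genes. The IFIT proteins bind foreign RNA, the OAS enzymes make the 2′-5′-linked oligoadenylates that activate RNase L, and the MX proteins are dynamin-like GTPases that trap viral components. HP1 proteins bind the methylated lysine 9 of histone H3 and are known for compacting repressed chromatin, and in most epithelial cells these genes are weakly expressed until interferon arrives.

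The genes lie in 4 places of the genome (build hg38, with gene bounds from RefSeq on GRCh38.p14). IFIT2, IFIT3, IFIT1 and IFIT5 lie in this order on chromosome 10, and the IFIT span with 1 kb on each side was chr10:89301046-89421997. OAS1, OAS3 and OAS2 lie side by side in the span chr12:112905962-113012723, while OASL lies apart from them on the same chromosome at chr12:121016761-121040246. MX2 and MX1 share the span chr21:41361027-41460214. The annotation used gives gene bounds without exons or introns, so a peak is placed here relative to the ends of its gene only.

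Promoter sequences show what these genes have in common before any HP1 value. RefSeq start-site windows of 300 bases, from 250 before to 50 after a start, matched 6 of the 10 genes (9 windows, since IFIT3 and MX1 have several). The core of the interferon-stimulated response element, GAAA followed after any 2 bases by GAAA, was searched on both strands (on the other strand it reads TTTC, any 2 bases, TTTC). It was present in 7 of the 9 windows and in 5 of the 6 genes, against 3.57% of 35116 windows and 4.16% of 15812 protein-coding genes. IFIT5 held 3 matches, IFIT1, OAS3 and both IFIT3 windows 2 each, the lowest and the uppermost MX1 windows 1 each, and OAS1 and the middle MX1 window none. Of the other interferon pathway genes listed below, 25 of 53 with a window held it. A match is a description of letters and not a measured binding site. The stretches below show the clearest pairs of matches (capitals), at IFIT1 and at both IFIT3 start sites, and the MX1 start site that was the only one to meet an HP1 peak. All are printed 5′ to 3′.
IFIT1, chr10:89392482-89392554, forward strand: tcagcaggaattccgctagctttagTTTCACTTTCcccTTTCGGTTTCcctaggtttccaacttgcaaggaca
IFIT3, lower start site, chr10:89327816-89327909, forward strand: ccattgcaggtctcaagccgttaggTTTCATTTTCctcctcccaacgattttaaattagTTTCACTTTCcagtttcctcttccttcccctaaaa
IFIT3, upper start site, chr10:89332410-89332512, forward strand: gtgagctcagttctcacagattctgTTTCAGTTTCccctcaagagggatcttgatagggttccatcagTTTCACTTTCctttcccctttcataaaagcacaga
MX1, uppermost start site, chr21:41431829-41431888, forward strand: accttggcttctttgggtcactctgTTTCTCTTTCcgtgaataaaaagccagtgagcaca
In these 9 windows HP1 peaks were nearly absent: no HP1a library listed a peak in any of them, and 2 HP1b libraries listed 1 peak each, both in the uppermost MX1 window (chr21:41431800-41432099). In HP1b wild type replicate 1 that peak (chr21:41431904-41433981, fold 2.81) began above the printed MX1 stretch. In HP1b with HP1A knock-down replicate 2 it covered the whole window (chr21:41431680-41432191, fold 2.70). Among all start-site windows of the genome, between 0.415 and 5.45% met a peak in a given library, so peaks were rare at start sites in general.

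The libraries differed in how much was listed, and every value below has to be read against that. HP1a lists held 134058 and 115564 peaks in wild type (69.8 and 60.4 Mb covered) and 19638 and 19092 with HP1B knock-down (9.89 and 9.68 Mb). HP1b lists held 239563 and 240090 peaks in wild type (158.1 and 157.1 Mb) and 159536 and 225991 with HP1A knock-down (118.4 and 164.9 Mb). Read depth is unknown, so fewer peaks because of less protein on chromatin and fewer peaks because of a shallower or less efficient library cannot be told apart. A place at 0 is one where no peak was listed. The covered share is the percentage of a gene body plus 1 kb on each side that lay under peaks, so it compares genes per length. Relative coverage, the quantity fitted with limma, divides the peak-covered bases of a gene by the covered Mb of the library.

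Over the 10 genes together, 1.79 and 2.57% of the bases were covered by HP1a in wild type, 0.109 and 0.605% with HP1B knock-down, 8.99 and 6.06% by HP1b in wild type, and 3.16 and 7.02% with HP1A knock-down. The same figures over all gene windows were 2.25 and 1.83%, 0.310 and 0.284%, 4.63 and 4.84%, and 3.11 and 4.71%. HP1b coverage of the antiviral genes was thus above that of all gene windows in each of the 4 HP1b libraries, though hardly so in HP1A knock-down replicate 1, while HP1a coverage was above it in 1 wild-type library and below it in the other. The peaks themselves were of ordinary height. The authors' fold enrichment had a median over the peaks of these genes of 3.31 and 3.30 in the HP1a wild-type libraries and 2.89 and 3.04 in the HP1b wild-type libraries, where all peaks had medians of 3.29, 3.26, 2.93 and 3.03. No gene of the 10 had a peak in all 8 libraries, a state reached by 8.35% of all protein-coding genes. OAS1 had one in 7, OAS2, OASL and MX1 in 6, OAS3 and MX2 in 5, IFIT2 and IFIT3 in 4, IFIT1 in 3 and IFIT5 in none. Over all protein-coding genes, 19.4% had a peak in at least 7 libraries and 32.8% in at least 6. At least 5 were reached by 42.7% and at least 4 by 51.9%.

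**Figure D1:**
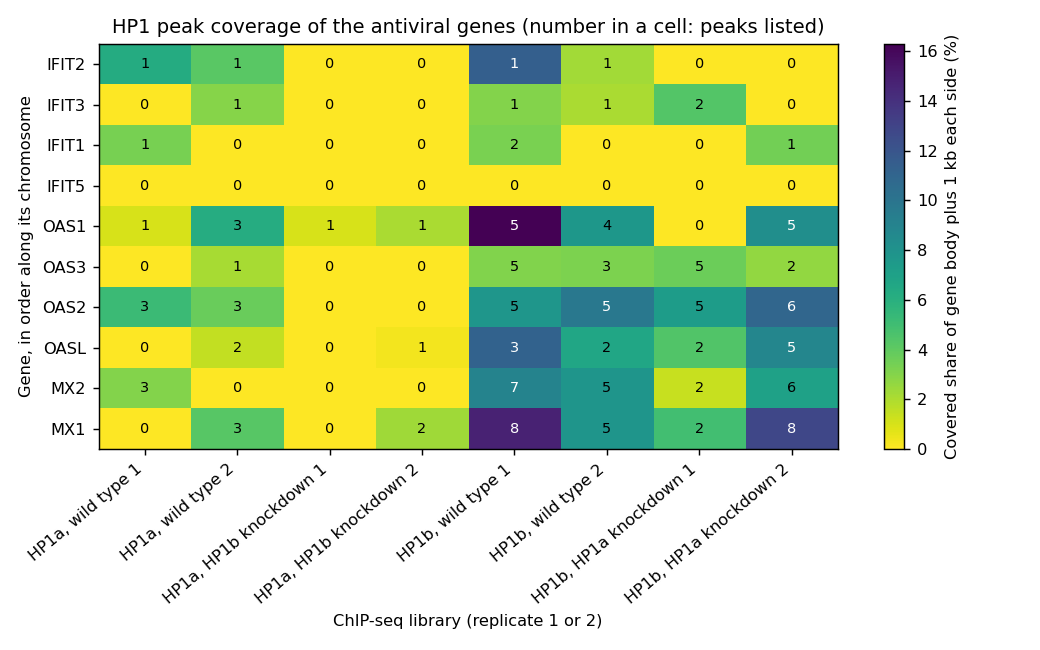
Covered share (%, colour) of each antiviral gene plus 1 kb on each side in each of the 8 libraries, with the number of peaks written in the cell. The highest share is 16.3%, at OAS1 in HP1b wild type replicate 1, the HP1a columns with HP1B knock-down are almost empty, and the IFIT5 row is at 0 throughout.

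The IFIT genes, whose proteins bind viral RNA through tetratricopeptide repeats, formed the span with the lowest HP1b coverage. At IFIT2 the covered share was 6.28 and 4.15% by HP1a in wild type, 0 and 0 with HP1B knock-down, 11.4 and 2.28% by HP1b in wild type, and 0 and 0 with HP1A knock-down. IFIT2 was therefore listed in all 4 wild-type libraries and in none of the 4 knock-down libraries. How many other genes share this pattern was not counted. The HP1a peaks at IFIT2 had -log10 p of 3.29 and 3.23, below the lowest value listed with HP1B knock-down (3.43). Peaks of that strength would not have been listed there, so the 0 values cannot show a loss. Both HP1a wild-type peaks (chr10:89307873-89308451, fold 3.04, and chr10:89306675-89307057, fold 2.97) overlapped the same HP1b peak of wild type replicate 1 (chr10:89306905-89307954, fold 2.87) without overlapping each other, and the HP1b peak of replicate 2 (chr10:89303871-89304080, fold 3.59) stood apart from all of them. The replicates thus agreed on the gene but not on the position.

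IFIT3, a partner that binds and stabilises IFIT1, had covered shares of 0 and 2.95% by HP1a in wild type, 0 and 0 with HP1B knock-down, 3.03 and 2.06% by HP1b in wild type, and 4.34 and 0% with HP1A knock-down. IFIT1, which recognises RNA with an incompletely methylated cap, had 3.37 and 0% by HP1a in wild type, 0 and 0 with HP1B knock-down, 3.28 and 0% by HP1b in wild type, and 0 and 3.49% with HP1A knock-down. At both genes the replicates of a group disagreed on whether there was a peak at all in 2 or more groups. IFIT5, which also binds RNA, had no peak in any library, and 15.8% of all protein-coding genes shared that state. Its gene body is the shortest of the 10, at 6430 bases against a median of 23.9 kb for the antiviral genes and 24.2 kb for all protein-coding genes.

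The IFIT span as a whole, intergenic parts included, had 4 and 7 HP1a peaks in wild type and none in either library with HP1B knock-down. Its covered share was 2.0% ± 0.647 (SD, n = 2) by HP1a in wild type and 0 with HP1B knock-down. By HP1b it was 5.46% ± 0.558 (SD, n = 2) in wild type and 2.28% ± 0.146 (SD, n = 2) with HP1A knock-down, 2.40-fold lower, with 14 and 11 peaks in wild type and 7 and 4 with HP1A knock-down. Neither pair of groups overlapped, and each difference gave p = 0.333 in a two-sided exact permutation test, the smallest p that 2 against 2 libraries can give. How many other regions of this size separate in the same way was not counted, here or for the spans below. After division by the covered bases of each library the IFIT span had 3.20 and 3.73% per 100 Mb of HP1b coverage in wild type against 2.01 and 1.32% with HP1A knock-down, so those groups stayed apart. For HP1a it had 2.21 and 4.07% in wild type and 0 and 0 with HP1B knock-down. A span with 4 and 7 peaks in the long lists may hold none in lists this short, and whether its 0 goes beyond that was not tested. Inside the span, IFIT1B, a related gene of the family, had covered shares of 0 and 8.81% by HP1a and 2.57 and 15.3% by HP1b in wild type and was at 0 in all 4 knock-down libraries, as IFIT2 was.

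**Figure D2:**
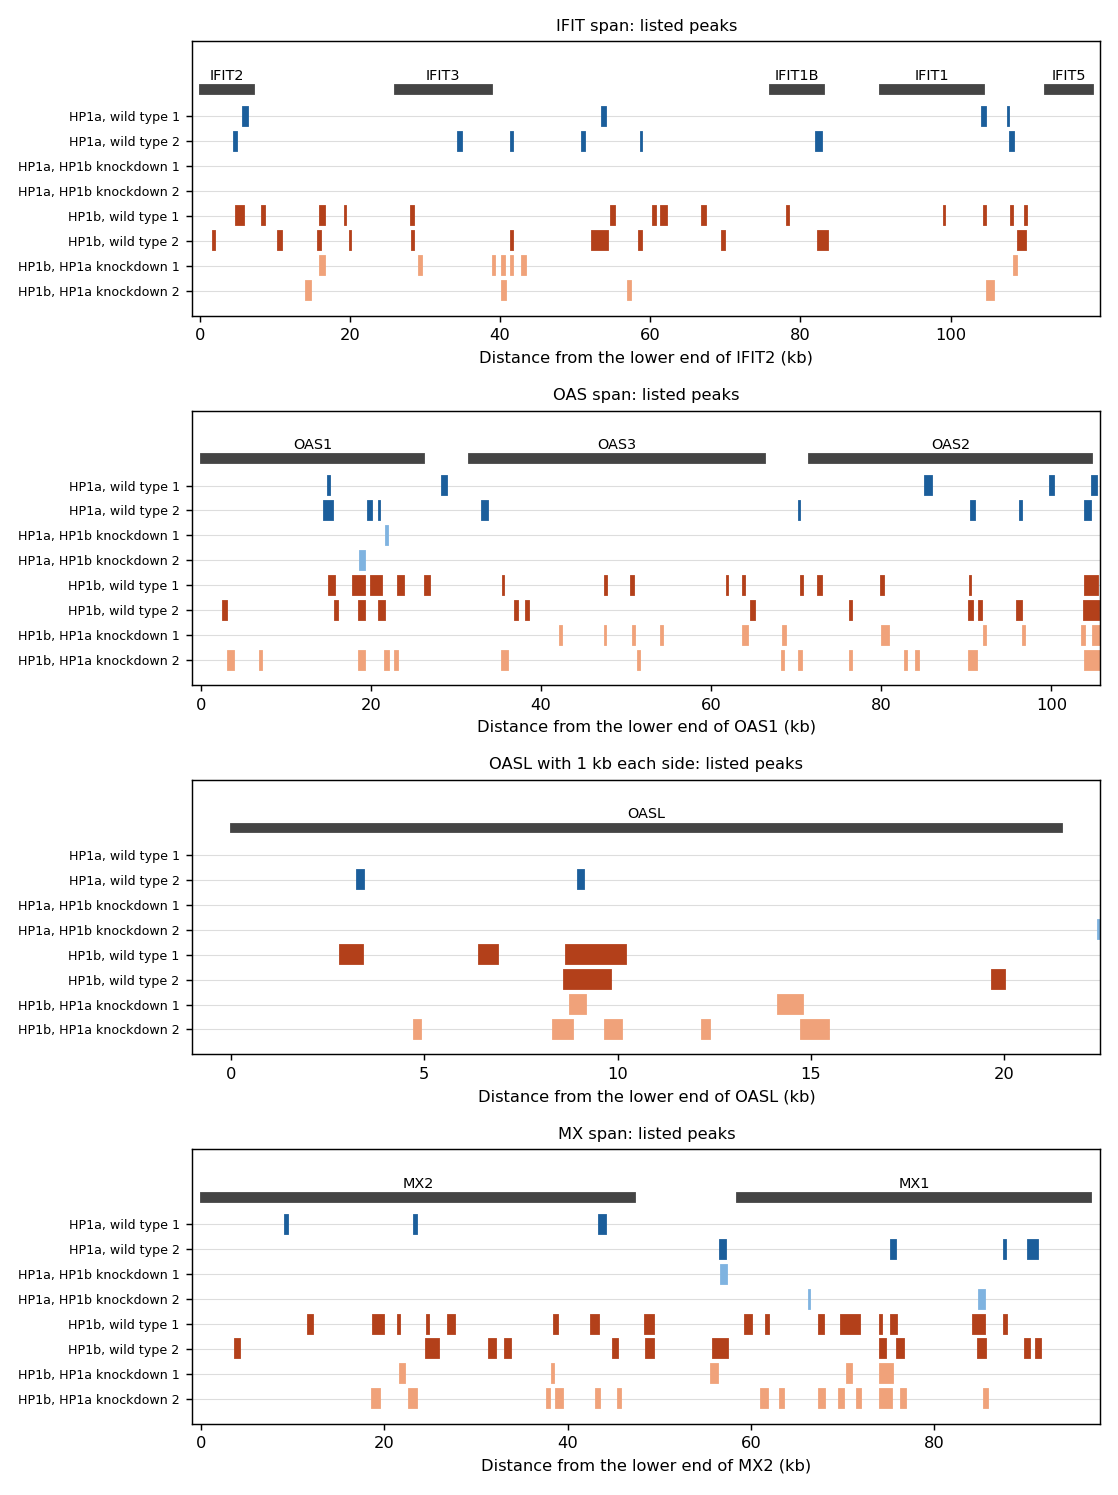
Peaks listed in each library (rows) along the IFIT, OAS, OASL and MX spans, with gene bodies as grey bars and distance in kb from the lower end of the first gene on the horizontal axis. The HP1a rows with HP1B knock-down are empty over the IFIT span and hold 1 peak per library over the OAS span. Around the upper end of OAS2 all 4 HP1b rows hold peaks. The HP1a wild-type peaks there do not overlap: that of replicate 2 lies inside the gene and that of replicate 1 just past its end.

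The OAS genes held the most recurrent HP1 site of the set, just past the end of OAS2. OAS2, an oligoadenylate synthetase with a duplicated catalytic unit, had covered shares of 5.16 and 3.70% by HP1a in wild type, 0 and 0 with HP1B knock-down, 7.75 and 9.78% by HP1b in wild type, and 7.26 and 10.9% with HP1A knock-down. HP1a peaks were thus listed at OAS2 only in wild type, while the HP1b values with HP1A knock-down spanned those of wild type. At its upper end lay 2 stretches covered throughout in at least 4 libraries and in part in 5. The first, chr12:113010898-113011617 (720 bases, inside the gene), lay under peaks of HP1a wild type replicate 2 and of all 4 HP1b libraries. The peak of HP1A knock-down replicate 1 met only its lower edge. It ended at chr12:113010911, the base where the peak of HP1A knock-down replicate 2 began, so the 5 libraries coincided at that base only. The second, chr12:113011778-113012386 (609 bases, just past the gene end), lay under peaks of HP1a wild type replicate 1 and of all 4 HP1b libraries. No other place in the 4 spans was covered in 5 libraries, and none in more. Of the covered bases of the 4 spans, 0.674% were covered in at least 5 libraries, against 1.56% of covered bases in the genome. Such recurrence was therefore not more frequent here than elsewhere.

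OAS1, the smallest OAS enzyme, was the 1 antiviral gene listed in all 4 HP1a libraries, against 1723 of all 19970 protein-coding genes. Its covered share was 0.959 and 6.24% by HP1a in wild type, 1.02 and 2.04% with HP1B knock-down, 16.3 and 7.66% by HP1b in wild type, and 0 and 8.22% with HP1A knock-down. The 2 knock-down values of HP1a lay between the wild-type ones, but the HP1a peaks that remained (chr12:112928729-112929015, fold 3.77, and chr12:112925682-112926257, fold 3.47) overlapped no HP1a wild-type peak of the gene. The second of them met HP1b peaks in both wild-type libraries and in HP1A knock-down replicate 2, over the shared stretch chr12:112925682-112926247.

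OAS3, the largest of the OAS enzymes, had 0 and 2.13% by HP1a in wild type, 0 and 0 with HP1B knock-down, 3.10 and 3.22% by HP1b in wild type, and 3.65 and 2.65% with HP1A knock-down. OASL, an OAS-like protein without synthetase activity that enhances RIG-I signalling, had 0 and 1.48% by HP1a in wild type, 0 and 0.315% with HP1B knock-down, 11.2 and 6.65% by HP1b in wild type, and 4.44 and 8.81% with HP1A knock-down. In both genes the HP1b values with and without HP1A knock-down overlapped, and HP1a was listed in 1 of the 2 wild-type libraries.

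The OAS span had 5 and 8 HP1a peaks in wild type and 1 and 1 with HP1B knock-down. Its covered share was 3.16% ± 0.838 (SD, n = 2) and 0.404% ± 0.191 (SD, n = 2), 7.83-fold lower with groups that did not overlap (exact permutation p = 0.333, the smallest possible). The total HP1a coverage of the libraries was lower by a similar factor: per 100 Mb of coverage, the OAS span had 3.68 and 6.21% in wild type and 2.72 and 5.57% with HP1B knock-down, which overlap. By HP1b the OAS span had 7.15% ± 1.11 (SD, n = 2) in wild type and 5.59% ± 2.33 (SD, n = 2) with HP1A knock-down, and OASL had 8.91% ± 3.20 and 6.63% ± 3.10 (SD, n = 2). These HP1b groups overlapped, with exact permutation p = 0.667 for each.

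MX1 and MX2, GTPases that block incoming viruses in the cytoplasm and at the nuclear pore, lay in the span with the highest HP1b coverage in wild type. MX1 had covered shares of 0 and 4.21% by HP1a in wild type, 0 and 2.31% with HP1B knock-down, 14.7 and 7.79% by HP1b in wild type, and 4.90 and 12.8% with HP1A knock-down. MX2 had 3.01 and 0% by HP1a in wild type, 0 and 0 with HP1B knock-down, 9.02 and 7.82% by HP1b in wild type, and 1.39 and 6.97% with HP1A knock-down. Each gene was listed for HP1a in a different wild-type replicate, and HP1b was listed at both genes in all 4 HP1b libraries. MX1 held 3 of the stretches covered in 4 libraries, of which chr21:41436168-41436323 was covered in all 4 HP1b libraries and in no HP1a library.

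In the MX span HP1b covered 10.5% ± 1.29 (SD, n = 2) in wild type against 1.95% ± 0.643 (SD, n = 2) for HP1a, 5.40-fold more. With HP1A knock-down the HP1b share was 6.06% ± 3.76 (SD, n = 2), from 3.40% in replicate 1, the shorter of the 2 lists, to 8.72% in replicate 2. The HP1a share was 0.827% ± 0.167 (SD, n = 2) with HP1B knock-down, 2.36-fold lower than in wild type. Each of these 3 pairs of groups was separate, at the exact permutation p of 0.333. Per 100 Mb of HP1a coverage the order was the opposite, 2.14 and 3.98% in wild type and 7.17 and 9.76% with HP1B knock-down. The MX span thus kept a larger part of the short HP1a lists than of the long ones. In the gap between MX2 and MX1, a HP1a peak of wild type replicate 2 (chr21:41418629-41419301, fold 3.09) overlapped one of HP1B knock-down replicate 1 (chr21:41418777-41419479, fold 3.20).

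**Figure D3:**
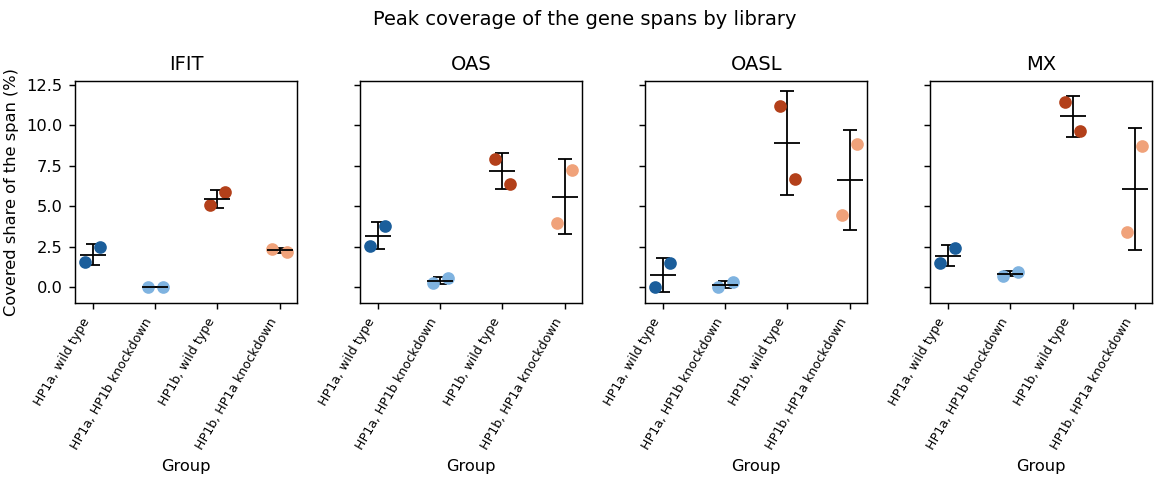
Covered share (%) of the IFIT, OAS, OASL and MX spans in each library (points), with the mean (long line) and SD (bar) of the 2 libraries of each group. HP1b in wild type is above HP1a in wild type in all 4 spans, and the IFIT span is the one with both HP1a libraries of the HP1B knock-down at 0.

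For HP1a after HP1B knock-down, relative coverage fell at 2 of the 5 antiviral genes that could be fitted and rose at none. A gene was fitted if at least 2 of the 4 libraries had a peak. IFIT2 had a log2 change of -1.08 (SE 0.14, limma adjusted p = 0.0308) and OAS2 one of -2.21 (SE 0.32, limma adjusted p = 0.0308). Over all genes 26.9% of 8877 fitted were called lower and 1.7% higher, so 2 of 5 is not far from the background. All fitted genes had a median log2 change of -1.03. Because both knock-down values of these 2 genes were 0, the size of their change depends on the pseudocount and is no bound. Both genes entered the fit through their wild-type peaks only, and equal zeros have no spread. Their p-values therefore also depend on the filter and the pseudocount. OAS1 (log2 1.33, SE 0.91), MX1 (0.78, SE 1.84) and OASL (0.10, SE 0.56) did not pass (limma adjusted p between 0.39 and 0.925), and without scaling to library coverage their log2 changes were -0.62, -0.36 and -0.44. Without either wild-type library neither gene could be fitted, since 1 library with a peak remained, and without either knock-down library neither passed (limma adjusted p between 0.0561 and 0.127). Neither passed at a pseudocount 4 times as high (limma adjusted p = 0.069 for both), nor without the filter (0.497 and 0.268). Over all genes the calls for lower coverage also went to 0 at that pseudocount and without the filter, and to 1 and 2 without wild type replicate 1 and 2.

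Counted by presence of peaks, IFIT2 and OAS2 were lost and OAS1 was kept among the 3 antiviral genes with HP1a in both wild-type libraries. Lost means a peak in both wild-type libraries and in neither knock-down library. The wild-type peaks of IFIT2 were weaker than any peak listed with HP1B knock-down, so for IFIT2 the word describes the lists only. In the genome 18.7% of all protein-coding genes were lost, or 47.0% of the 7944 with HP1a in both wild-type libraries, and 0.27% were gained. Of those 7944 genes, 1723 were kept. Of the peaks at the antiviral genes, 0 of 9 and 0 of 14 in the HP1a wild-type libraries met a peak of the HP1B knock-down, against 5.17 and 5.37% of all peaks. When each HP1a list was cut to the same number of its strongest peaks by p-value, or to peaks with -log10 p of at least 4, none of the antiviral genes was lost. At -log10 p of at least 4 there remained 4 and 3 peaks at these genes in wild type and 1 and 3 with HP1B knock-down. Only OAS1 then had a peak in both wild-type libraries, so IFIT2 and OAS2 could not count as lost. The cut to the same number of peaks was stricter still in wild type, so neither setting tests the loss at these 2 genes.

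For HP1b after HP1A knock-down, none of the 9 fitted antiviral genes passed limma's test (0 also at an unadjusted p under 0.05), and neither did any of 13100 genes in the genome (0% lower, 0% higher, with 3247 at an unadjusted p under 0.05). The lowest values were at OAS1 (log2 -1.84, SE 1.09, limma adjusted p = 0.36), IFIT2 (-1.28, SE 0.54, 0.226) and MX2 (-1.06, SE 0.64, 0.374), beside a median of -0.46 over all genes. OAS2 (0.18, SE 0.41), OAS3 (0.13, SE 0.65) and IFIT1 (0.01, SE 0.66) were near no change, with errors that allow one in either direction. By presence of peaks, IFIT2 was lost, and OAS2, OAS3, OASL, MX1 and MX2 were kept, among the 8 antiviral genes with HP1b in both wild-type libraries. Of all genes, 7.87% were lost and 1.03% gained. Of the 11099 with HP1b in both wild-type libraries, 14.2% were lost and 7055 genes were kept. The 5 of 8 antiviral genes kept are thus near the background. The OAS1 value rested on replicate 1 of the HP1A knock-down, which listed no peak there. Without replicate 2 OAS1 passed the test (log2 -3.12, limma adjusted p = 0.00795), with the lone library assumed to vary like the other group.

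In wild-type cells HP1b covered more of each span than HP1a, by 2.73-fold over IFIT and 2.26-fold over OAS beside the 5.40-fold over MX, with groups that did not overlap in any of the 4 (exact permutation p = 0.333 for each). At OASL the HP1b share of 8.91% stood against 0 in HP1a replicate 1 and 1.48% in replicate 2, so a fold there would rest on which HP1a library is used. The HP1b lists covered more than 2 times as many bases in all. Per 100 Mb of coverage, HP1a and HP1b overlapped at IFIT (2.21 and 4.07% against 3.20 and 3.73%). They also overlapped at OAS (3.68 and 6.21% against 5.02 and 4.05%). They stayed apart at MX (2.14 and 3.98% against 7.24 and 6.13%) and OASL (0 and 2.45% against 7.07 and 4.23%). The share of other regions that separate in this way was not counted. By presence of peaks, none of the 10 genes was listed in both libraries of one protein and neither of the other, against 6.64% of all genes for HP1b and 0.586% for HP1a. Relative to total coverage, none of the 9 fitted antiviral genes passed limma's test (0 at an unadjusted p under 0.05), and of 13089 genes 0% were lower and 0% higher, with 1640 at an unadjusted p under 0.05. MX2 (log2 1.79, SE 1.13), MX1 (1.68, SE 1.23) and OASL (1.65, SE 0.93) had the highest values and IFIT2 (-0.67, SE 0.83) the lowest, around a median of 0.10 for all genes. Without scaling that median was 1.02. The 2 proteins were precipitated in separate libraries, so a difference between the proteins and one between the precipitations cannot be told apart. Of the HP1a wild-type peaks at the antiviral genes, 5 of 9 and 12 of 14 met a HP1b wild-type peak, against 50.6 and 52.9% of all HP1a peaks.

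**Figure D4:**
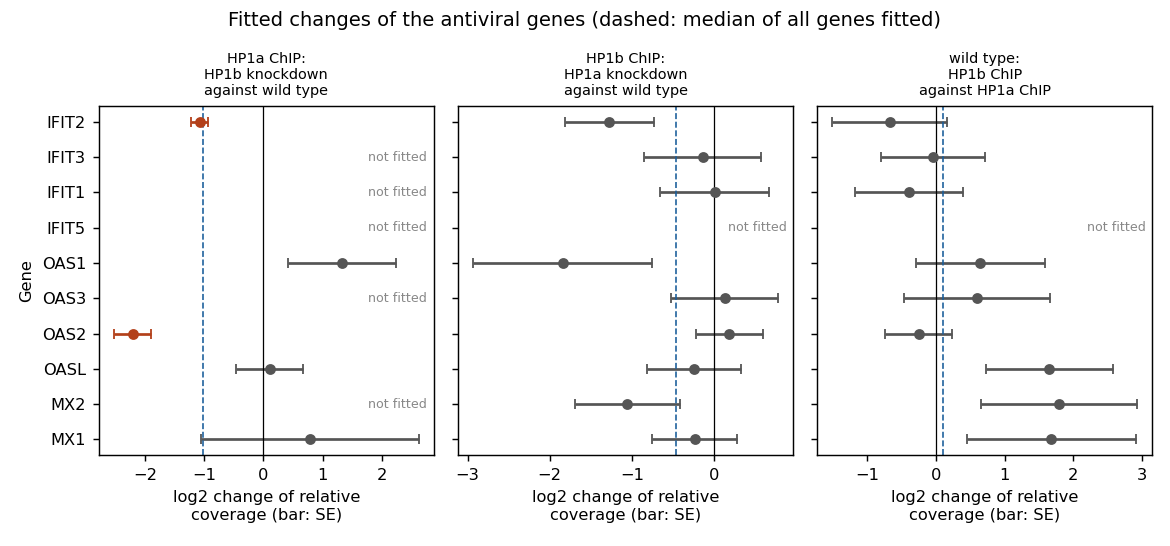
Log2 change of relative coverage (points, with SE as bars) of the antiviral genes in the 3 comparisons, from limma, with the median of all fitted genes as a dashed line. IFIT2 and OAS2 (red) passed the threshold for HP1a after HP1B knock-down, at -1.08 and -2.21, and the grey points did not pass.

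The change of HP1a without HP1B was compared with that of HP1b without HP1A in an interaction test. The estimated difference had opposite signs at OAS1 and OAS2, which lie on either side of OAS3. The log2 difference between these changes was 3.32 at OAS1 (SE 1.63, limma adjusted p = 0.394) and -3.39 at OAS2 (SE 0.77, limma adjusted p = 0.125 over 14464 genes), and neither passed. None of the 9 fitted antiviral genes and 0% of all genes, in either direction, passed this interaction test. OAS2 was the 1 antiviral gene among the 2363 genes with an unadjusted p under 0.05. The loss of HP1a at OAS2 with HP1b kept there is therefore a description of these libraries.

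Replicates agreed little on where the peaks at these genes lay. In the HP1a wild-type libraries 1 of 9 and 1 of 14 peaks met a peak of the other replicate, against 18.4 and 21.4% of all peaks. For HP1b it was 9 of 37 and 9 of 26 in wild type (35.1 and 35.2% of all peaks), and 5 of 18 and 4 of 33 with HP1A knock-down (48.7 and 34.1%). Of the covered bases of the 4 spans, 3.43% were covered in at least 4 libraries, against 4.75% of covered bases in the genome. Besides those at OAS2, OAS1 and MX1 named above, 2 such stretches lay within OASL, at chr12:121026538-121026595 in all 4 HP1b libraries and at chr12:121026732-121026893 in 3 of them and HP1a wild type replicate 2. Peaks at these genes with -log10 q of at least 2 numbered 0 in each of the 4 HP1a libraries. There were 0 and 2 in the HP1b wild-type libraries, and 1 and 4 with HP1A knock-down. The share of all peaks past that limit was not counted. At -log10 p of at least 4 HP1a had 4 of 9 and 3 of 14 in wild type, against 33.0 and 30.1% of all peaks. With HP1B knock-down it had 1 of 1 and 3 of 4 (55.5 and 48.8%). HP1b had 1 of 37 and 4 of 26 in wild type (12.0 and 17.1%). With HP1A knock-down it had 3 of 18 and 5 of 33 (22.3 and 27.1%). The strongest peak at these genes was a HP1b peak in OAS1 of HP1A knock-down replicate 2 (chr12:112913964-112914147, fold 4.08, -log10 q 3.60).

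The genes next to the spans were measured in the same way. LIPA, the lysosomal acid lipase gene, whose RefSeq bounds on chromosome 10 overlap IFIT2, IFIT3, IFIT1 and the start of IFIT5, had HP1a covered shares of 1.41 and 1.89% in wild type and 0 and 0 with HP1B knock-down (log2 -3.14, SE 0.49, limma adjusted p = 0.0312). Its peaks include those of the IFIT genes, so it is no separate observation. Like IFIT2 and OAS2, LIPA entered the fit through its wild-type peaks only, so its p-value depends on the filter and the pseudocount. SLC16A12 above the IFIT span had 3.02 and 2.41% in wild type and 0 and 0.372% with HP1B knock-down and did not pass (log2 -1.65, SE 1.29, limma adjusted p = 0.459). Below the OAS span RPH3A had 0.868 and 0.801% against 0.791 and 0.156%, and above it DTX1 had 0 and 0 against 0.471 and 1.94%. DTX1 did not pass (log2 2.95, SE 0.80, limma adjusted p = 0.0801). Beside MX, FAM3B had 1.38 and 1.12% against 1.23 and 0.398%, and TMPRSS2 had 1.93 and 1.52% against 1.84 and 0%. Above OASL, P2RX7 had 0.609 and 1.60% against 0.730 and 0%. SLC16A12, RPH3A, FAM3B, TMPRSS2 and P2RX7 thus had lower mean shares with HP1B knock-down and a peak in at least 1 library of it, as the OAS, OASL and MX spans did. DTX1 had HP1a peaks in both libraries of the HP1B knock-down and in neither of wild type. Relative to library coverage, log2 changes were positive at FAM3B (1.46, SE 0.72), RPH3A (1.38, SE 0.94), TMPRSS2 (0.39, SE 1.54) and P2RX7 (0.17, SE 1.23), and none passed. Whether the lower shares of these genes go beyond the shorter lists was not tested.

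Other interferon pathway genes were taken from a list of 69 that matched the annotation: receptors and kinases, transcription factors, sensors, and other induced genes. For HP1a after HP1B knock-down 38 were fitted, 22 were called lower and none higher, beside the 26.9 and 1.7% of all genes. Genes at 0 in both knock-down libraries entered the fit through their wild-type peaks only, here as over all genes. Calls at such genes depend on the filter and the pseudocount, so the 22 add no support for a loss. The 38 fitted genes had a median log2 change of -1.50, against -1.03 over all genes. By presence of peaks 32 of the 37 with HP1a in both wild-type libraries were lost, which is 86.5% against 47.0% of all such genes. The 37 are shorter genes, with a median length of 35.7 kb against 77.7 kb for all genes with HP1a in both wild-type libraries, and a short gene has fewer peaks to lose. The part of length in this count was not tested. With each HP1a list cut to the same number of strongest peaks, 1 of 2 was lost, against 426 of 1956 genes in all. At -log10 p of at least 4 it was 7 of 8 against 1678 of 3607, both settings chosen after seeing the data.

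By class, HP1a was lost at 6 of 6 receptors and kinases with peaks in both wild-type libraries, 4 of 4 sensors, 1 of 2 transcription factors and 21 of 25 other induced genes. The 3 with the largest moderated t statistics were IRF1, ISG20 and SAMD9L. Each was at 0 in both knock-down libraries and entered the fit through its wild-type peaks only. Their p-values depend on the filter and the pseudocount, as at IFIT2 and OAS2, and add no support to the counts of lost genes. IRF1, a transcription factor that drives antiviral genes, had covered shares of 4.93 and 4.45% in wild type and 0 and 0 with HP1B knock-down (log2 -1.16, SE 0.13, limma adjusted p = 0.0308). ISG20, an exonuclease acting on RNA, had 3.91 and 3.84% and then 0 and 0 (log2 -1.63, SE 0.20, limma adjusted p = 0.0308). SAMD9L, an antiviral factor that restrains translation, had 4.78 and 3.28% and then 0 and 0 (log2 -1.54, SE 0.20, limma adjusted p = 0.0308). For HP1b after HP1A knock-down 49 were fitted and none passed (12 at an unadjusted p under 0.05), beside 3247 of 13100 genes in all. By presence of peaks 7 of 47 were lost, 14.9% against 14.2% of all genes with HP1b in both wild-type libraries, so both counts were near the background. For HP1b against HP1a in wild type 54 were fitted and none passed (6 at an unadjusted p under 0.05).

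Across the 8 libraries, the genes whose covered shares lay nearest to the mean covered share of the antiviral genes were SYNE3, SLC9A4 and PLA2G4E, at Euclidean distances of 1.42, 1.72 and 1.73 percentage points. SYNE3, which encodes a nesprin of the nuclear envelope, had 2.40 and 3.05% by HP1a in wild type, 0.270 and 0.827% with HP1B knock-down, 8.57 and 4.22% by HP1b in wild type, and 1.85 and 5.07% with HP1A knock-down. The mean of the antiviral genes was 1.88, 2.49, 0.102, 0.466, 7.98, 4.73, 2.60 and 5.39% in the same order. Over these means HP1b wild type replicate 1 was above replicate 2 although their lists covered about the same number of bases, and HP1a wild type replicate 2 was above replicate 1 although its list was shorter.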

How the data were processed

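HP1a and HP1b ChIP-seq peaks in 8 libraries of MCF10A were analysed from the deposited broad peak lists. Per the submitters' processing notes, the tools included MACS3, Bowtie2, Trimmomatic and SAMtools on build hg38. Versions, settings and any input library: not given in the sources used here. Each line of the deposited lists holds a score, a fold enrichment as a ratio, a −log10 p-value and a −log10 q-value, all made by the authors' peak caller in each library separately, and these folds were used only to describe peaks. They hold no read counts, so depth is unknown. Only chromosomes 1 to 22 and X entered, at least 99.1% of each list.

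Gene bounds came from RefSeq on GRCh38.p14, with 1 kb added on each side. Groups followed the labels. Relative coverage was the bases of a gene under peaks per Mb under peaks in that library. It was fitted with limma 3.58.1 in R 4.3.3 (moderated t, variance trend) on log2 of the value plus a pseudocount, the 10th percentile of values above 0 (6.52, 2.40 and 2.94 in the 3 comparisons), over all genes with a peak in at least 2 of 4 libraries. P-values were adjusted by Benjamini-Hochberg at 0.05. The procedure was tested on simulated data. Shares of spans were compared with two-sided exact permutation tests. Alternatives changed the peak threshold, pseudocount, scaling, filter, flank, libraries in the fit and replicate block. Genes named were the 10 antiviral genes, genes inside or next to their spans (1 of these is not reported here), up to 3 pathway genes per direction and comparison with the largest moderated t past the threshold, and the 3 genes nearest in pattern. The genes and lists were chosen with earlier results of these data known. Start-site windows were not used here for IFIT2, OAS2, OASL and MX2.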

Additional observations from a re-analysis of the deposited data

How the results depend on the processing

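The number of antiviral genes called lower for HP1a after HP1B knock-down, 2 in the reported fit, was 2 without scaling and without flanks, 1 with all 8 libraries in 1 fit, 5 with flanks of 5 kb, and 0 with peaks of −log10 p of at least 4 or −log10 q of at least 2, the same number of top peaks, a pseudocount multiplied by 4 or no filter. It was 0 without any 1 library, and calls for higher coverage ranged from 0 to 1 (MX1 without HP1B knock-down replicate 1, log2 2.85, limma adjusted p = 0.00673). With the replicate block it was also 0 (limma adjusted p = 0.0852 for IFIT2 and OAS2). At the stricter peak settings neither gene had the 2 libraries with a peak that a fit needs. Deviations of same-numbered replicates correlated at 0.0229, 0.0454 and -0.0137 in the 3 comparisons, so the numbers do not pair the libraries. Over all genes, calls for lower HP1a coverage went from 2385 to 0 with the block, the higher pseudocount, no filter, the same number of top peaks or −log10 p of at least 4, to 808 at −log10 q of at least 2, to 4625 without scaling, and to between 1 and 2063 without 1 library. Those for higher coverage went from 151 to between 0 and 1034. In the other comparisons, with 0 calls over all genes as reported, calls lower and higher were 287 and 122 with the block and 1 and 12 with the same number of top peaks for HP1b after HP1A knock-down, 2 and 2 with the block and 0 and 188 without scaling in wild type, and 595 and 12 without scaling and 506 and 232 without the filter for the interaction. Without 1 library they reached at most 1793 and 290, 197 and 255, and 792 and 249.

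Antiviral genes that lost HP1a numbered 5 with flanks of 5 kb, 0 at −log10 p of at least 4, at −log10 q of at least 2 and with the same number of top peaks, and 2 to 4 without 1 library. The 0 values were fixed for IFIT2 and OAS2, which no longer had HP1a peaks in both wild-type libraries at those settings. For HP1b after HP1A knock-down, 0 were lost at −log10 p of at least 4 and at −log10 q of at least 2, 1 was gained at −log10 p of at least 4, 1 to 2 were lost without 1 library, and 0 to 1 were called lower. In wild type, 0 to 1 were called higher and 0 to 4 gained without 1 library, MX1 passing without HP1a replicate 2 (log2 3.47) and MX2 without HP1a replicate 1 (log2 3.31). The interaction called 1 lower without the filter and 0 to 1 without 1 library. In the other settings no antiviral gene was called in these comparisons.

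Log2 changes that changed sign, none past the threshold in the reported fit, were these. For HP1a after HP1B knock-down, without scaling, they were OAS1 (-0.62), OASL (-0.44) and MX1 (-0.36). Without 1 library OASL ranged from -0.18 to 0.71 and MX1 from -0.10 to 2.85. For HP1b after HP1A knock-down they were OAS3 (-0.31), MX1 (0.16) and IFIT3 (0.29) with the same number of top peaks, IFIT3 at the higher pseudocount (0.0035) and with flanks of 5 kb (0.83), OAS3 without scaling (-0.013), and MX1 at −log10 p of at least 4 (0.26). Without 1 library IFIT1 ranged from -0.57 to 0.65, IFIT3 from -1.01 to 0.69, OAS3 from -0.23 to 0.48, OASL from -0.54 to 0.067 and MX1 from -0.65 to 0.18. In wild type they were IFIT2 (0.10), IFIT3 (0.51) and OAS2 (0.87) without scaling, OAS3 with flanks of 5 kb (-0.34), and MX1 at −log10 p of at least 4 (-0.27). Without 1 library IFIT1 ranged from -1.35 to 0.12, IFIT3 from -0.94 to 0.91, OAS1 from -0.47 to 1.79, OAS3 from -0.62 to 1.88 and MX1 from -0.027 to 3.47.

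Differences in covered share (percentage points, first group minus second) changed sign as follows. For HP1a after HP1B knock-down they were OAS at −log10 p of at least 4 (0.0318), OASL with flanks of 5 kb (0.54), and, with the same number of top peaks, MX (0.641), OAS (0.159) and OASL (0.158). For HP1b after HP1A knock-down they were MX and OAS at −log10 p of at least 4 (0.896 and 0.555) and at −log10 q of at least 2 (1.12 and 0.209). In wild type they were IFIT and MX at −log10 p of at least 4 (-0.169 and -0.356) and OAS with the same number of top peaks (-0.264). Without 1 library OASL for HP1a ranged from -1.32 to 0.158 and OAS for HP1b with HP1A knock-down from -3.21 to 0.0838. The cause of these changes was not tested. Without read counts, a place just under the peak caller's threshold cannot be told from one without the protein.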
